A study of Mus musculus with 6 samples.

Results

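The protocadherins are cadherin-like adhesion proteins of the cell surface, and the family was read here through every non-control array probe whose accession maps to a mouse gene symbol beginning with Pcdh. These were 58 of 41006 probes. They stood for 54 of 12323 named genes on the array and for 54 of the 70 protocadherin genes that RefSeq lists for the mouse. The alpha cluster had 11 probes for 10 of its 14 genes, the beta cluster 20 probes for 20 of 22 genes, and the gamma cluster 22 probes for 19 of 22 genes. Of the 12 unclustered genes, 5 had a probe, namely Pcdh1, Pcdh8, Pcdh10, Pcdh15 and Pcdh18. The genes with no named probe were Pcdh7, Pcdh9, Pcdh11x, Pcdh12, Pcdh17, Pcdh19, Pcdh20, Pcdha2, Pcdha8, Pcdhac1, Pcdhac2, Pcdhb6, Pcdhb16, Pcdhga7, Pcdhgb1 and Pcdhgb8, and they were not analysed here. Of the 58 probes, 57 were tested. The second Pcdhga11 probe (A_66_P134862) did not exceed background on both arrays of any group, with sample intensities of 8.48 and 10.3 in MAPC, 9.47 and 17.8 in ESC, and 21.6 and 10.1 in NS.

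RNA from 3 kinds of mouse cell culture was compared on 6 arrays, with 2 samples of each kind. MAPC (multipotent adult progenitor cells) were a single bone marrow clone described as high in Oct4, derived by depleting CD45+ and Ter119+ cells after 4 weeks and seeding 10 cells in each well. It was kept in 5% oxygen with 2% serum, mouse EGF and human PDGF-BB at 10 ng/mL, and mouse LIF at 1000 units/mL, and was used past 80 population doublings. ESC were C57BL/6 embryonic stem cells cultured with 15% serum and LIF over irradiated embryonic fibroblasts, the last plating being free of feeders. NS were neurospheres raised from dissociated forebrain neuroepithelium of E11.5 C57BL/6 embryos with bFGF and EGF at 20 ng/mL. No strain was given for MAPC. Cell type, source and culture medium differed together, so they cannot be told apart in any comparison. Each array also held a common reference RNA pooled from 11 mouse cell lines in the other dye (Cy5, against Cy3 for the sample), and the dyes were never swapped. Values below are log2 ratios of sample to reference unless a sentence says that they are sample intensities. In such bulk RNA, fewer cells of a type and less RNA per cell cannot be told apart.

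Clustered protocadherin genes lie in 3 adjacent clusters. In the alpha and gamma clusters each variable first exon carries its own promoter and is spliced to exons shared by the whole cluster, while the beta genes are single exons without a shared part. In neurons each cell switches on a small choice of these promoters, a choice that involves CTCF, cohesin and DNA methylation, and the resulting proteins bind like to like and let a neuron recognise its own branches. The unclustered genes have separate promoters and are best known from the patterning of brain and mesoderm, from axon growth and, for Pcdh15, from the hair cells of the ear.

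Sequences are shown for unclustered genes, to identify the promoters and the probes of the members described next. First come the RefSeq promoter windows of assembly GRCm38.p6 for the 3 unclustered genes with differences of at least 2-fold and for Pcdh15, which passed no test. Each window of 300 bases runs 5′ to 3′ along the gene across its annotated start, and capitals mark CCAAT boxes (CCAAT or its complement ATTGG) and TATA boxes (TATAAA or its complement TTTATA).
Pcdh10, chr3:45378148-45378447, strand +: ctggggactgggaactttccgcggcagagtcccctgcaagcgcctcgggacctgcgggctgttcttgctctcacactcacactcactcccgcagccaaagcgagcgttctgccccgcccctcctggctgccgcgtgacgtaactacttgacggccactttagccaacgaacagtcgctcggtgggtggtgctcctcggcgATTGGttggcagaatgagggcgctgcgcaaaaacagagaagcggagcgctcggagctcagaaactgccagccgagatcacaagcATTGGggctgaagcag
Pcdh8, chr14:79771263-79771562, strand -: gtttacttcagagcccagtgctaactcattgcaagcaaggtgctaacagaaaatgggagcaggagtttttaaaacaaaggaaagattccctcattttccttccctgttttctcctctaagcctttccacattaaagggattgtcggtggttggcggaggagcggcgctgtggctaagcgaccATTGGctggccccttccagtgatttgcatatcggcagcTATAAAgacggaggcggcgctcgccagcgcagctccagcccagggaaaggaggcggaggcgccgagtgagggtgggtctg
Pcdh18, chr3:49757267-49757566, strand -: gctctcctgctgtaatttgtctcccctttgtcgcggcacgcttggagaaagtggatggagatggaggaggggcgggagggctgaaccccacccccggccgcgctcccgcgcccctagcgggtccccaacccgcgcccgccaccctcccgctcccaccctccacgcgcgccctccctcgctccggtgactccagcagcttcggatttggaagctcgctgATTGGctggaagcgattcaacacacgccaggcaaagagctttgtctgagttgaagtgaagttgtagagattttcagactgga
Pcdh15, chr10:73821617-73821916, strand +: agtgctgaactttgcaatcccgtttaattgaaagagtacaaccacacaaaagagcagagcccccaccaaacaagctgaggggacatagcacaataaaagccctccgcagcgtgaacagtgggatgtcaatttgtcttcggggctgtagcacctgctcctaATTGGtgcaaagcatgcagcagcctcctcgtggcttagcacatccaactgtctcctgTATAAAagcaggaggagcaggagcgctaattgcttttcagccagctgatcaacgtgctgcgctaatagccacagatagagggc
A CCAAT box was present in all 4 windows, with 2 copies in Pcdh10, and 37.4% of 32851 promoter windows of this length held at least 1. The TATAAA motif was found in the Pcdh8 and Pcdh15 windows, against 13.6% of all windows. The windows held 24 CpG dinucleotides in Pcdh10, 14 in Pcdh8, 23 in Pcdh18 and 8 in Pcdh15, where the quartiles over all windows were 3, 7 and 20. These matches describe letters in a window and not bound sites.

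The probes that measured these 4 genes are 60 bases long, and the first 30 bases of each are given 5′ to 3′ to identify what was read.
Pcdh10 probe A_66_P117912: gtttatcactgttttcagtcgcgtgtacca
Pcdh8 probe A_66_P114264: aatgtgttggaattgctcattgggatttta
Pcdh18 probe A_66_P130887: gaatgccttggtaagtgagatctttactat
Pcdh15 probe A_66_P128005: aaaggcaatctcaggtgctttaatatgtag
Across the 57 tested members, the median GC content of the probes differed between subgroups, with overlapping ranges. It was 61.7% in alpha probes, 58.3% in gamma probes, 38.3% in beta probes and 35% in the unclustered probes. When the probes were compared with one another, only those of Pcdhb15 and Pcdhb22 shared a run of 15 bases or more, of 21 bases. They were not compared with whole transcripts, so whether a probe also reads another member was not tested. Whether an alpha or gamma probe lies in a variable or a shared exon was not known. Each probe is named here by the gene of its accession only.

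Across the family, most differences between the 3 cultures were small, apart from a group of probes that were high in NS. MAPC against ESC called 8 of 57 probes (14.0%), 5 higher and 3 lower, at an adjusted p of 0.05 (limma, Benjamini-Hochberg over all probes). Of all tested probes 38.4% were called, 16.2% as higher and 22.2% as lower. The split between directions changed with the scaling, to 13 higher and 3 lower under quantile normalization between arrays and to 1 higher and 2 lower under median centring. MAPC against NS called 22 (38.6%), 5 higher and 17 lower, where 44.2% of all probes were called, 21.8% as higher and 22.3% as lower. ESC against NS called 19 (33.3%), 1 higher and 18 lower, where 38.6% of all probes were called, 20.4% as higher and 18.2% as lower. The shares called against NS lay somewhat below those of all probes, and these calls were mostly lower ones. The median difference over members was 0.03 for MAPC minus ESC, -0.03 for MAPC minus NS and -0.08 for ESC minus NS, against 0.01, 0.03 and 0.01 for all probes.

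Which members reached 2-fold depended on the processing. In the reported fit, differences of at least 2-fold that also passed the test were found in 8 members. Against NS they numbered 7 in MAPC and 7 in ESC (12.3% each), all lower. Among all probes 11.4% and 9.01% passed both criteria, 6.84% and 4.19% as lower. No member was at least 2-fold higher in any contrast, where 2.99% of all probes were so for MAPC minus ESC, 4.52% for MAPC minus NS and 4.82% for ESC minus NS. Between MAPC and ESC the only such member was Pcdh18, which was lower in MAPC (8.56% of all probes, 5.57% as lower). The 3 group means lay within 0.5 log2 units of each other for 47 of the 58 members, compared with 67% of all tested probes. At least 1 contrast called 27 of 57 members, compared with 56.1% of all probes. NS exceeded both other cultures in 15 members (13.9% of all probes), of which 10 were beta genes, 3 unclustered, 1 alpha and 1 gamma.

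**Figure D1:**
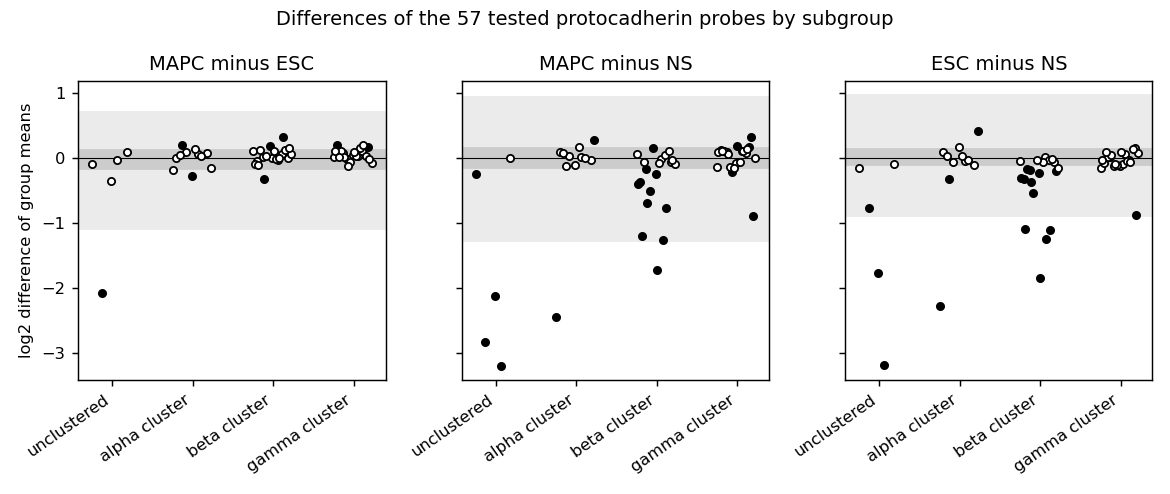
Difference of group means on the log2 scale (vertical axis) for each tested protocadherin probe, by subgroup (horizontal axis) and contrast (panels). Filled points passed an adjusted p of 0.05, open points did not, the dark band spans the middle 50% of all tested probes and the pale band their 5th to 95th percentile. The gamma and alpha probes gather near 0 apart from a few, while 3 unclustered, 1 alpha and 4 beta probes reach 2-fold below NS in MAPC, ESC or both.

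Pcdh10, a protocadherin of developing brain whose tail recruits the WAVE actin complex, had the widest difference of the family in the reported fit. Its log2 ratio was -0.10 and -0.06 in MAPC, 0.02 and -0.13 in ESC, and 3.10 and 3.13 in NS. Both NS arrays stood far above the other 4, which overlapped one another. MAPC lay 3.20 below NS (difference -3.20, SE 0.06, 9.17-fold lower, adjusted p = 1.81e-08) and ESC lay 3.17 below it (difference -3.17, SE 0.06, adjusted p = 3.84e-08), whereas MAPC minus ESC was -0.02 (adjusted p = 0.830). Its sample intensity was 9.75 and 23.7 in MAPC, 27.4 and 30.3 in ESC, and 594 and 642 in NS. The first MAPC array was not well above background for this probe, but its value entered the mean, the difference and the SE. Its intensity lay below the 99th percentile of negative control spots on that array (11.3), so the 9.17-fold size is uncertain. The size of the MAPC minus NS difference ranged from -3.94 to -1.68 over 18 processing alternatives, the smallest being without background subtraction.

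Pcdh8, also called paraxial protocadherin or arcadlin and known from gastrulation in frog and fish and from activity-driven removal of N-cadherin in rat neurons, was likewise highest in NS. Log2 ratios were 0.11 and 0.02 in MAPC, 0.45 and 0.39 in ESC, and 1.89 and 2.47 in NS. The groups did not overlap, and ESC lay between MAPC and NS. MAPC minus NS was -2.12 (SE 0.16, 4.34-fold lower, adjusted p = 1.86e-05) and ESC minus NS was -1.76 (SE 0.16, adjusted p = 6.50e-05). MAPC minus ESC was -0.36 and missed the threshold (adjusted p = 0.134). It passed in 3 of 19 alternatives, with an adjusted p down to 0.00534. They were the fit of the 4 MAPC and ESC arrays alone and the fits without either NS array. For this contrast these were 1 and the same fit. The NS arrays differed by 0.59, the widest gap between replicates among the members. Sample intensities were 14.4 and 13.7 in MAPC, 35.5 and 45.7 in ESC, and 139 and 237 in NS, and the 99th percentile of negative control spots was 11.3 and 13.3 on the MAPC arrays. The difference from NS ranged from -3.15 to -0.72 in MAPC and from -2.41 to -0.63 in ESC over 19 alternatives and stayed called in each.

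Pcdh18, which binds the adaptor Dab1 and takes part in actin-based cell movement, was lower in MAPC than in both other cultures. Its log2 ratio was -2.41 and -2.21 in MAPC, -0.24 on the single ESC array that measured it, and 0.53 and 0.52 in NS. The spot on the first ESC array was marked as an outlier and left out. MAPC was lowest, ESC intermediate and NS highest, with no overlap. MAPC minus ESC was -2.07 (SE 0.10, 4.20-fold lower, adjusted p = 5.67e-06), and MAPC minus NS was -2.83 (SE 0.08, 7.13-fold lower, adjusted p = 3.32e-07). ESC minus NS was -0.76 (SE 0.10, adjusted p = 0.000742). With 1 ESC array, both tests that involve ESC assume that ESC varied as the other groups did. Sample intensities, the outlier spot included, were 35.8 and 47.2 in MAPC, 294 and 345 in ESC, and 626 and 639 in NS. Keeping the outlier spot gave -1.96 for MAPC minus ESC, and the range over 18 alternatives was -2.83 to -0.91, with every value called.

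The fibroblast list is relevant to Pcdh18 because ESC were grown over embryonic fibroblasts. Of its 9 genes 6 were tested. Their median log2 ratio was -2.81 and -2.93 in MAPC, -0.04 and 0.02 in ESC, and -1.53 and -1.48 in NS, and their summed sample intensity was 1016 and 913 in MAPC, 17135 and 15601 in ESC, and 7096 and 8040 in NS. Postn, a matrix protein of fibroblasts, had intensities of 8.03 and 9.99 in MAPC. MAPC was below ESC in 5 of the 6 (22.2% of all probes) and below NS in 5 of the 6 (22.3%). ESC was above NS in 5 (20.4%). Pcdh18 and this list were both lowest in MAPC, but Pcdh18 was higher in NS than in ESC and the list was not. The part of feeder or fibroblast RNA in the Pcdh18 values was not tested.

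Pcdh1 and Pcdh15 showed little difference. Pcdh1, an adhesion protein of epithelia including the airway, had log2 ratios of -0.49 and -0.55 in MAPC, -0.53 and -0.34 in ESC, and -0.34 and -0.23 in NS. MAPC and NS did not overlap, and MAPC minus NS was -0.24 (SE 0.08, adjusted p = 0.0400), a call that was lost in 9 of 19 alternatives and had the opposite sign in 1. Pcdh15, a tip link component of inner ear hair cells, had log2 ratios of -0.05 and -0.10 in MAPC, -0.09 and -0.25 in ESC, and 0.01 and -0.17 in NS. The arrays of the 3 groups overlapped and no contrast was called, with differences of 0.10, 0.01 and -0.09 (MAPC minus ESC, MAPC minus NS, ESC minus NS) and SE 0.08. Of the 5 unclustered probes, 4 were lower in MAPC than in NS (22.3% of all probes) and 3 lower in ESC than in NS (18.2%). The median differences of these 5 probes were -2.12 and -0.76.

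**Figure D2:**
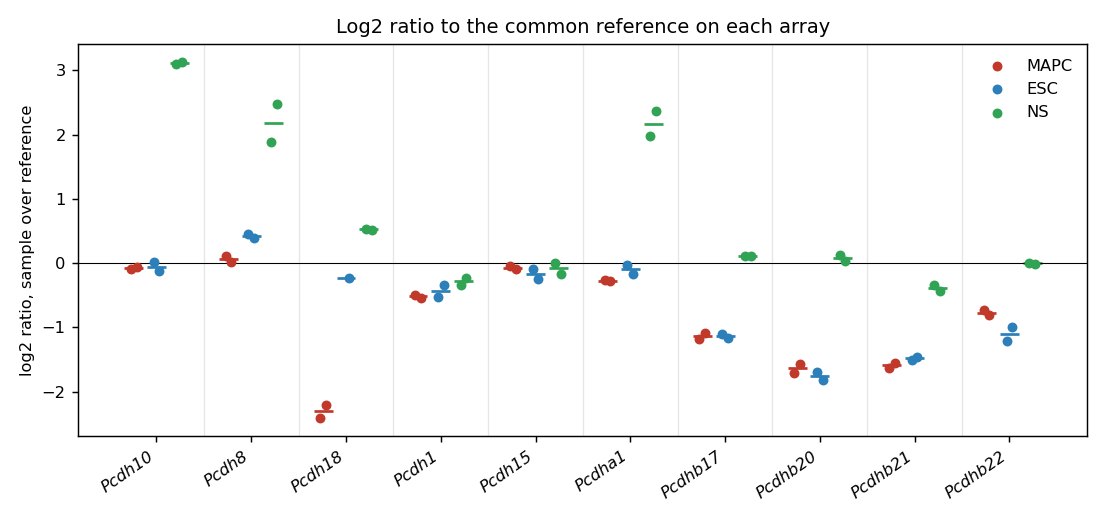
Log2 ratio of sample to common reference (vertical axis) on each array, for the 5 unclustered probes and the 5 clustered probes with a difference of at least 2-fold (horizontal axis). Points are arrays, horizontal lines are group means of the measured arrays, and colours are MAPC, ESC and NS from left to right within a gene. Pcdh10 and the first Pcdha1 probe stand above the other cultures only in NS, Pcdh18 is far below them in MAPC, and Pcdhb17, Pcdhb20 and Pcdhb21 lie near one level in MAPC and ESC.

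The neural progenitor markers moved with the members that were high in NS. Of 10 such markers, 8 were lower in MAPC than in NS (22.3% of all probes) and 7 lower in ESC than in NS (18.2%). Their median log2 ratio was -0.23 and -0.18 in MAPC, -0.00 and 0.08 in ESC, and 3.14 and 3.14 in NS, and their summed intensity was 27937 and 25171 in MAPC, 35172 and 45493 in ESC, and 157355 and 162912 in NS. Hes5, a Notch target of neural progenitors, had intensities of 9.62 and 16.7 in MAPC. Of 6 neuronal markers tested, 5 were lower in MAPC than in NS and 1 was higher (22.3% and 21.8% of all probes). ESC was lower than NS in 3 of these markers and higher in 2 (18.2% and 20.4%). The part of these cell types in the protocadherin values was not tested.

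In the alpha cluster, whose proteins combine a variable extracellular part with a shared cytoplasmic tail, almost all probes had like ratios in the 3 cultures. The exception was a Pcdha1 probe (A_66_P107984), with log2 ratios of -0.26 and -0.28 in MAPC, -0.03 and -0.17 in ESC, and 1.97 and 2.37 in NS. Both NS arrays stood apart from the other 4. MAPC minus NS was -2.44 (SE 0.12, adjusted p = 1.53e-06), and ESC minus NS was -2.27 (SE 0.12, adjusted p = 3.17e-06). MAPC minus ESC was -0.17 and was not called (adjusted p = 0.316). Sample intensities were 9.28 and 11.3 in MAPC, 17.2 and 19.2 in ESC, and 239 and 223 in NS, and the first MAPC array was not well above background. Both MAPC intensities lay below the 99th percentile of negative control spots on their arrays (11.3 and 13.3), so the size of the difference is uncertain. The MAPC minus NS value ranged from -4.02 to -0.87 over 17 alternatives.

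A different reading came from the other Pcdha1 probe (A_66_P140895). Its log2 ratios were -0.38 and -0.58 in MAPC, -0.57 and -0.52 in ESC, and -0.59 and -0.41 in NS, which overlapped, and its differences of 0.06, 0.02 and -0.04 were not called. The probes of Pcdha1 thus disagreed, so no single statement on Pcdha1 transcript can be made from them. GC content was 36.7% in the probe that differed and 65% in the other. Whether either probe lies in a variable or a shared exon was not known. Apart from A_66_P107984, the 10 alpha probes had median differences of 0.06, 0.03 and 0.00 and lay between -0.33 and 0.42 in every contrast. Within them Pcdha10 was higher than NS in MAPC (difference 0.28) and in ESC (0.42), Pcdha3 was higher in MAPC than in ESC (0.21) and lower in ESC than in NS (-0.33), and Pcdha5 was lower in MAPC than in ESC (-0.27).

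The beta cluster held most of the clustered differences. Of 20 probes, 10 were lower and 1 higher in MAPC than in NS (22.3% and 21.8% of all probes). In ESC against NS 12 were lower and none higher (18.2% and 20.4%). The median differences from NS were -0.13 in MAPC and -0.19 in ESC. MAPC and ESC differed in 3 beta probes (15%, against 38.4% of all probes), of which 2 were higher and 1 was lower in MAPC. In the reported fit the 2-fold differences all fell on genes at the far end of the cluster. They were Pcdhb17, Pcdhb20, Pcdhb21 and Pcdhb22.

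Pcdhb20 had the widest difference in the beta cluster. Log2 ratios were -1.71 and -1.57 in MAPC, -1.70 and -1.82 in ESC, and 0.12 and 0.04 in NS. MAPC and ESC overlapped, and both lay below NS. MAPC minus NS was -1.72 (SE 0.07, 3.29-fold lower, adjusted p = 6.89e-07), and ESC minus NS was -1.84 (SE 0.07, adjusted p = 7.43e-07). Sample intensities were 20.7 and 31.2 in MAPC, 27.0 and 27.9 in ESC, and 174 and 234 in NS. The range of MAPC minus NS over 19 alternatives was -2.71 to -0.62.

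Pcdhb17 was likewise lower in MAPC and ESC than in NS, with log2 ratios of -1.18 and -1.09 in MAPC, -1.11 and -1.16 in ESC, and 0.12 and 0.12 in NS. MAPC minus NS was -1.25 (SE 0.06, adjusted p = 9.82e-07) and ESC minus NS was -1.25 (SE 0.06, adjusted p = 1.43e-06), while MAPC minus ESC was -0.00. MAPC and ESC arrays overlapped at a level well below the NS arrays. Sample intensities were 13.1 and 22.0 in MAPC, 21.2 and 28.6 in ESC, and 99.1 and 119 in NS. Over 19 alternatives MAPC minus NS ranged from -2.40 to -0.36.

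Pcdhb21 had log2 ratios of -1.64 and -1.55 in MAPC, -1.51 and -1.46 in ESC, and -0.34 and -0.44 in NS. Here the MAPC arrays lay just below the ESC arrays and both pairs far below NS. MAPC minus NS was -1.20 (SE 0.06, adjusted p = 1.90e-06), and ESC minus NS was -1.09 (SE 0.06, adjusted p = 4.38e-06). MAPC minus ESC was -0.11 and not called (adjusted p = 0.221). Sample intensities were 20.8 and 36.6 in MAPC, 30.0 and 54.3 in ESC, and 129.7 and 155 in NS, and MAPC minus NS ranged from -2.03 to -0.39 over 19 alternatives.

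Pcdhb22 differed between MAPC and ESC as well as from NS. Log2 ratios were -0.73 and -0.81 in MAPC, -1.22 and -0.99 in ESC, and 0.01 and -0.01 in NS. ESC was lowest, MAPC intermediate and NS highest, with no overlap. ESC minus NS was -1.10 (SE 0.08, adjusted p = 1.84e-05), and MAPC minus NS was -0.77 (SE 0.08, 1.70-fold lower, adjusted p = 0.000119). MAPC minus ESC was 0.33 (SE 0.08, adjusted p = 0.0131), a call lost in 4 of 19 alternatives, among them the fits without the first MAPC array (adjusted p = 0.0754) and without the first ESC array (adjusted p = 0.0524). Sample intensities were 80.8 and 82.2 in MAPC, 51.0 and 92.1 in ESC, and 215 and 209 in NS, so on this scale the MAPC and ESC arrays overlapped.

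The remaining beta differences were smaller in the reported fit, but some of them passed 2-fold in an alternative. Pcdhb18 had log2 ratios of -0.08 and -0.05 in MAPC, 0.26 and 0.26 in ESC, and 0.59 and 0.65 in NS, a stepwise order without overlap. Its differences were -0.32 for MAPC minus ESC (adjusted p = 0.00187), -0.69 for MAPC minus NS (adjusted p = 1.99e-05) and -0.36 for ESC minus NS (adjusted p = 0.000907). Over 19 alternatives MAPC minus ESC ranged from -1.16 to -0.18 and MAPC minus NS from -1.34 to -0.39. Sample intensities of Pcdhb18 were 58.4 and 75.2 in MAPC, 233 and 281 in ESC, and 240 and 332 in NS. On this scale the ESC and NS arrays overlapped. Pcdhb9 was lower than NS by 0.51 in MAPC (difference -0.51) and 0.54 in ESC (difference -0.54), calls that were lost in 5 and 4 of 19 alternatives. These differences ranged from -1.31 to -0.08 in MAPC and from -1.33 to -0.12 in ESC. Pcdhb3, Pcdhb5, Pcdhb7 and Pcdhb15 were also lower than NS in both MAPC (-0.39 to -0.16) and ESC (-0.32 to -0.18). The MAPC calls of Pcdhb3 and Pcdhb5 were lost in 11 and 8 of 19 alternatives, and Pcdhb15 in MAPC reached -1.10. Pcdhb12 (-0.17) and Pcdhb19 (-0.19) were called lower in ESC than in NS, calls lost in 9 and 7 alternatives. Pcdhb14 was higher in MAPC than in ESC (0.19) and in NS (0.16), calls lost in 9 and 11.

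Read in gene order, the beta probes differed in size along the cluster. The 7 probes from Pcdhb15 to Pcdhb22 had median differences from NS of -0.77 in MAPC and -1.09 in ESC. Of these, 6 and 7 were called lower (22.3% and 18.2% of all probes) and 4 were at least 2-fold in some contrast. The 13 probes from Pcdhb1 to Pcdhb14 had medians of -0.05 in MAPC and -0.05 in ESC. Of those, 4 and 5 were called lower and none was 2-fold in the reported fit. This split was chosen after the values were seen and carries no test. Pcdhb19, inside the far segment, had a MAPC minus NS difference of -0.03.

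**Figure D3:**
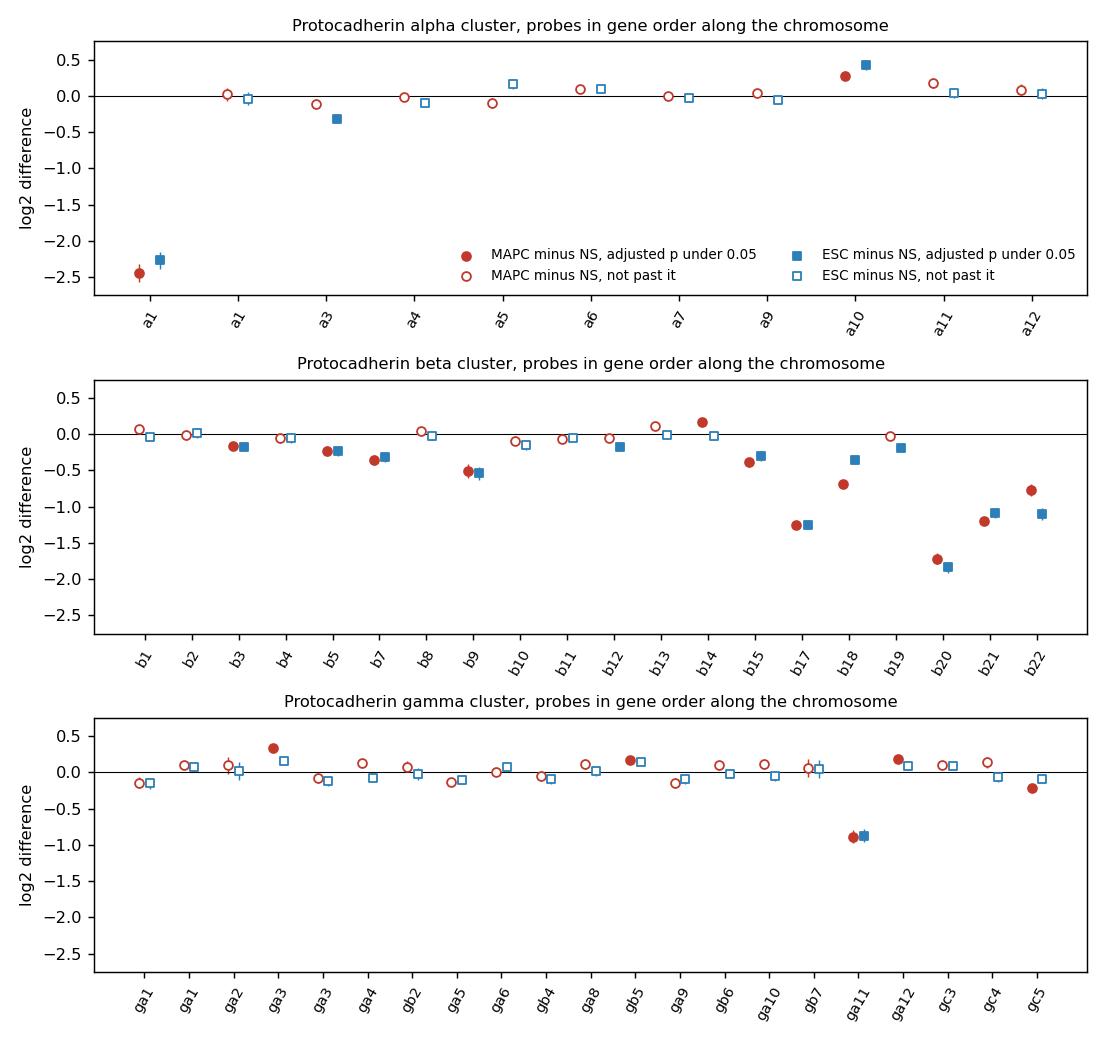
Log2 difference from NS (vertical axis) of each alpha, beta and gamma probe in gene order (horizontal axis, names without the Pcdh prefix), for MAPC (circles) and ESC (squares). Bars are standard errors and filled symbols passed an adjusted p of 0.05. The low values sit at the right end of the beta panel, with 1 low probe each for Pcdha1 and Pcdhga11.

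In the gamma cluster MAPC was called higher than ESC in 2 of 21 probes and lower in none (16.2% and 22.2% of all probes). Against NS, MAPC was higher in 3 and lower in 2 (21.8% and 22.3%), and ESC was lower in 1 (18.2%). MAPC against ESC called 9.52% of gamma probes, MAPC against NS 23.8% and ESC against NS 4.76%. Over all probes 38.4%, 44.2% and 38.6% were called in these contrasts. Gamma members include the C-type genes Pcdhgc3, Pcdhgc4 and Pcdhgc5, which neurons transcribe without the choice seen at the other promoters. Of these only Pcdhgc5 was called, lower in MAPC than in NS (-0.21). The single larger difference belonged to a Pcdhga11 probe (A_66_P124733), with log2 ratios of 0.19 and 0.16 in MAPC, 0.32 and 0.06 in ESC, and 1.04 and 1.09 in NS. MAPC and ESC overlapped below NS, and the differences were -0.89 (SE 0.09, adjusted p = 7.32e-05) for MAPC minus NS and -0.87 (SE 0.09, adjusted p = 9.56e-05) for ESC minus NS. This lay just under the 2-fold limit, as Pcdhb22 and Pcdhb21 lay just over it for ESC (-1.10 and -1.09). Over 19 alternatives the Pcdhga11 difference from NS ranged from -1.07 to -0.38 in MAPC and from -1.21 to -0.39 in ESC.

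Higher values in MAPC were small throughout. Pcdhga3 had a probe (A_66_P110960) that was higher in MAPC than in ESC (0.18) and NS (0.33), with log2 ratios of 0.31 and 0.27 in MAPC, 0.12 and 0.10 in ESC, and -0.03 and -0.06 in NS, while its other probe (A_66_P130657) was called in no contrast (0.04 and -0.07). Pcdhga4 was higher in MAPC than in ESC (0.21). Pcdhga12 (0.19) and Pcdhgb5 (0.17) were higher in MAPC than in NS. The pair of Pcdhga1 probes was called in no contrast of the reported fit. Of the 31 calls on members under 2-fold, 5 held in every alternative with a value and 26 were lost in at least 1, whereas 17 of the 18 calls on the members with 2-fold differences held in every alternative that gave the probe a value.

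**Figure D4:**
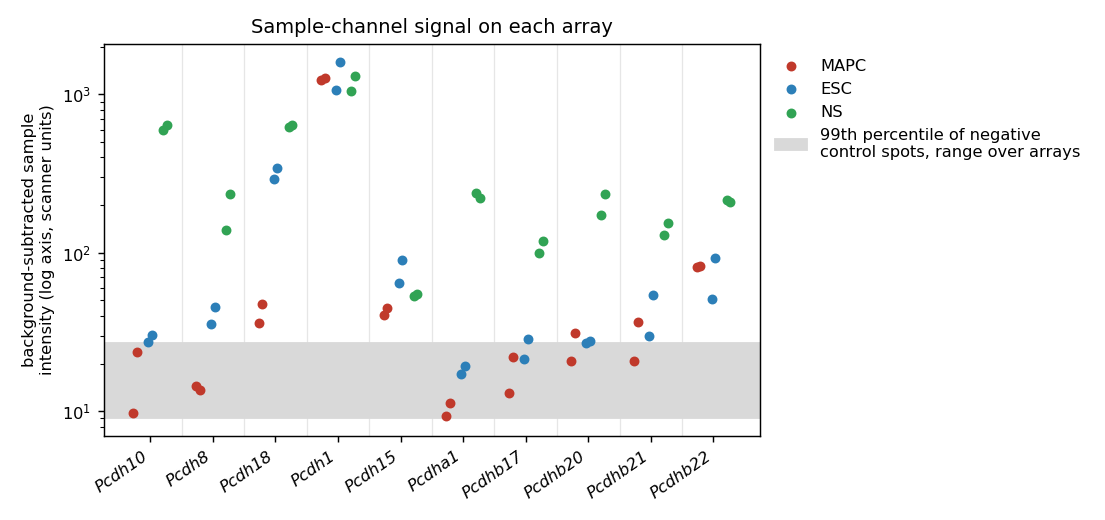
Background-subtracted sample intensity (log vertical axis, scanner units, not normalized between arrays) on each array for the probes in the plot of ratios. Points are arrays, coloured as MAPC, ESC and NS from left to right, and the grey band is the range over arrays of the 99th percentile of negative control spots (9.07 to 27.0). In MAPC the Pcdh10, Pcdh8, Pcdha1 and Pcdhb17 signals lie within the band.

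Depth of signal limits these values. The 314 negative control spots had a 99th percentile of 9.07 to 27.0 on the 6 arrays and a highest value of 10.2 to 165, and between 21 and 57 of the 58 members exceeded the highest control on an array. The low values of Pcdh10, Pcdh8, Pcdha1 and Pcdhb17 in MAPC are therefore near the noise, and so are ESC values on the second ESC array, where that percentile was 27.0 and the intensities were 19.2 for Pcdha1, 27.9 for Pcdhb20, 28.6 for Pcdhb17 and 30.3 for Pcdh10. The differences of these members from NS have a less certain size than direction. Replicate arrays differed by a median of 0.05 over members in MAPC, 0.05 in ESC and 0.07 in NS. The clustered members with 2-fold differences had low GC content (35% to 45%, median 36.7%, 5 probes), against a median of 55% in the other 47. Of these 5, 4 were beta probes, a subgroup with a median of 38.3%. Across the 52 clustered probes GC content and the largest difference had a Spearman correlation of -0.25, given as a description since the probes share arrays. A sense reading frame without a stop codon was present in 2 of the 5 probes and in 45 of the 47. The Pcdha1 probe A_66_P107984 lacked such a frame and A_66_P140895 did not. Whether this bears on the differences was not tested.

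Genes known to act on the clustered promoters were read in the same fit. Of 24 genes listed, 16 were tested. In MAPC against ESC 8 were lower and none higher (median -0.15), where 22.2% of all probes were lower and 16.2% higher. In MAPC against NS 4 were higher and 6 lower (median -0.02), where 21.8% of all probes were higher and 22.3% lower. In ESC against NS 8 were higher and 3 lower (median 0.23), where 20.4% of all probes were higher and 18.2% lower. Dnmt3b, a DNA methyltransferase that methylates clustered protocadherin promoters in mouse embryos, was 1.16 lower in MAPC than in ESC (difference -1.16), and higher than NS in MAPC (3.22) and in ESC (4.39). Dnmt3l, its catalytically inactive partner, was higher than NS in MAPC (3.19) and ESC (3.23), with 3.26 and 3.38 at a second probe. MAPC was also below ESC in Trim28 (-0.91), a corepressor, and Setdb1 (-0.79), a histone methyltransferase. ESC exceeded NS in both (0.99 and 0.57).

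Cohesin and its partner CTCF bind the promoters and enhancers of the clusters. The cohesin subunit Rad21 was lower in MAPC than in ESC (-0.96) and NS (-1.43), but a second Rad21 probe was called in no contrast (-0.08 and -0.16), so the subunit's direction is uncertain. Smc1a, another subunit, was lower in MAPC than in NS (-0.58).

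Partners of protocadherins at the membrane and in the WAVE complex were tested for 18 of 28 listed genes. In MAPC against ESC 2 were higher and 8 lower (median -0.12), in MAPC against NS 2 were higher and 7 lower (median 0.01), and in ESC against NS 3 were higher and 6 lower (median -0.03). Over all probes 38.4%, 44.2% and 38.6% were called in these contrasts. N-cadherin (Cdh2), which Pcdh8 removes from the surface of rat neurons, was lower in MAPC than in ESC (-2.56) and NS (-3.51), and lower in ESC than in NS (-0.95). Dab1, the adaptor bound by Pcdh18, was lower in MAPC than in ESC (-1.28) and NS (-3.01) and lower in ESC than in NS (-1.74). Group order was therefore the same in Dab1, Cdh2 and Pcdh18, with MAPC lowest and NS highest. Of all tested probes 12.6% were called lower in MAPC than in both other cultures. Cyfip2, a subunit of the WAVE complex, was lower in MAPC than in NS (-1.99) and in ESC (-1.05). Abi2, another subunit, was lower in ESC than in NS (-1.47). Ror2, a Wnt receptor, was lower in MAPC than in ESC (-4.07) and NS (-3.43). Ptk2, the focal adhesion kinase that clustered tails inhibit, was lower in ESC than in NS (-0.96), and by -0.56 at a second probe.

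In a list of other large cadherins that also held Fjx1, which is not a cadherin, 8 of 17 genes were tested. MAPC was lower than ESC in 5 and higher in 1 (median -0.46), lower than NS in 7 and higher in none (median -0.91), and ESC was lower than NS in 5 and higher in 1 (median -0.35). The shares of all probes called lower were 22.2%, 22.3% and 18.2% in these contrasts, and those called higher 16.2%, 21.8% and 20.4%. Celsr1, a planar polarity cadherin, was lower in MAPC than in ESC (-2.18) and NS (-2.20), with -2.70 in both contrasts at a second probe. Fjx1, related to the kinase Four-jointed that modifies Fat cadherins in the fly, was lower than NS in MAPC (-2.26) and ESC (-1.90). Fat4, a giant cadherin of planar polarity and growth control, was lower than NS in both as well (-1.31 and -1.30). Clstn3, a calsyntenin of synapses, was highest in ESC (-1.58 for MAPC minus ESC, 1.18 for ESC minus NS). Cdhr1, a photoreceptor cadherin, was lower in MAPC than in ESC (-0.66), and the desmosomal Dsc2 was lower in MAPC than in ESC (-0.55) and NS (-1.05). Celsr3 was lower in ESC than in NS at its brighter probe (-0.53) and not at the other (-0.03).

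The labels of the cultures were checked against their markers. All 10 pluripotency markers tested were lower in MAPC than in ESC, and 8 were higher in ESC than in NS. Against NS, 3 of the 10 were higher in MAPC, 2 were lower and 5 were not called. Their median log2 ratio was -0.04 and -0.02 in MAPC, and -0.04 and -0.04 in NS. As a list they therefore did not set MAPC apart from NS, but the list includes Sox2, which is also on the neural progenitor list. Pou5f1, which encodes Oct4, had log2 ratios of 0.90 and 1.33 in MAPC, 3.38 and 2.90 in ESC, and -0.25 and -0.29 in NS. For this gene MAPC lay between the other cultures. Its MAPC minus NS difference was 1.39 at this probe and 0.51 at a second probe, both called. The 4 tested genes of an endoderm-like list were chosen because they were high in MAPC in earlier results of these data, so they are no check of the label. Of 4 blood markers none was called between MAPC and NS (44.2% of all probes), and 2 were lower in MAPC than in ESC (22.2%).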

How the data were processed

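RNA of 6 samples (2 each of MAPC, ESC and NS) was hybridized to 2-colour 60-base oligonucleotide arrays. Per the file headers, Agilent Feature Extraction A.7.5.1 read the images, and the deposited files give mean and local background intensity for each spot and dye, together with processed intensities. The deposited series matrix holds log10 values with column medians of 2.95 to 2.97 and was used as an alternative only, because no source states how it was centred. The log2 ratios of sample to reference used here were computed from the deposited intensities. The steps were normexp background correction (offset 50) and loess within each array in limma 3.58.1 under R 4.3.3, with data.table at version 1.17.8. Control spots and outlier spots were left out, and spots of a probe were averaged. Accessions were named through a RefSeq list of genes. Of 41006 probes, 15294 were named by accession, 15 by symbol, 72 by an older symbol and 25625 not at all.

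A probe was tested where Feature Extraction marked its sample signal as well above background on every array of 1 group or more (39402 probes). A single limma fit (lmFit, eBayes, two-sided) used all 6 arrays with 3 residual degrees of freedom, and p-values were adjusted by Benjamini-Hochberg within each contrast over all tested probes. The fit was tested on simulated data, but no outcome is given here, so this lends the p-values no added weight. With 2 arrays per group, an exact permutation test cannot give a p below 0.333. The labels call the arrays of a group biological replicates, but both MAPC arrays carry the same clone description, so p-values measure the spread between these samples. Between 91.9% and 99.6% of probes were well above background on an array. Precision is limited by how few arrays there are.

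Members given in full were those called with at least a 2-fold difference in any contrast of the reported fit. For companion lists, up to 4 genes per list and contrast were named, those with the largest difference among the called, each gene by its brightest probe. Members and lists were chosen with earlier results of these data known. Alternatives covered background correction, normalization, filters, outlier spots, probe choice, replicate block, the groups in the fit and each array left out. Leaving out an array of the group outside a contrast repeats the fit of only the groups compared. Counts of alternatives therefore include that fit more than once.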

Additional observations from a re-analysis of the deposited data

How the results depend on the processing

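Between MAPC and ESC the count of called members depended on the processing. It was 8 in the reported fit, 5 with plain background subtraction, 3 with median centring in place of loess, 5 with the sample channel alone, 16 with quantile normalization between arrays, and 2 to 7 with an array left out. Without the first MAPC array or the first ESC array it was 2, and without the second MAPC array it was 3. The share called lower was 37.5%, with 18.8% under quantile normalization, 66.7% under median centring and 100% (2 of 2) without the first MAPC or the first ESC array, so the balance of directions between MAPC and ESC is not settled. For all probes that count was 15144 and 9863 with the sample channel alone. Between MAPC and NS the count of members was 22, with 14 under the deposited processed signals and 15 to 21 with an array left out, and between ESC and NS it was 19, with 15 to 18 with an array left out. Under quantile normalization between arrays the MAPC minus ESC differences of Pcdhb17 (0.38) and Pcdhb21 (0.47) had the opposite sign and passed the threshold. With the sample channel alone, the opposite sign was found for MAPC minus ESC of Pcdhga1 (A_66_P119137, -0.71) and Pcdhga4 (-0.30), for MAPC minus NS of Pcdha7 (0.51), Pcdhgb5 (-0.011) and Pcdh1 (0.13), and for ESC minus NS of Pcdhb3 (0.070). Of these sample-channel values, those of Pcdhga1 (adjusted p = 0.0056) and Pcdha7 (adjusted p = 0.0475) passed the threshold and the others did not. The causes of these changes were not tested. All calls of the 8 probes with 2-fold differences against NS held in every alternative that gave the probe a value, with smaller sizes when no background was subtracted. Of the 36 companion differences named, 35 stayed called in every alternative that gave a value.

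Replicate numbers coincided with the day on which the images were read, a day that held all 3 cultures. Same-numbered arrays deviated together with correlations of 0.0976 (MAPC and ESC), 0.157 (MAPC and NS) and 0.208 (ESC and NS), not all above 0.1, so the numbers were not taken as pairs. A replicate block called 8 members in MAPC against ESC, 21 in MAPC against NS and 19 in ESC against NS. Over all probes it called 15781, 18116 and 15735 in that order, and it changed no call of the 8 probes. Within a day the MAPC minus NS differences of these probes ran from -3.20 to -0.73 (first day) and from -3.19 to -0.80 (second day).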
